A study of Mus musculus with 9 samples.

Results

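The RNA levels of 9 genes that store, import, export and sense iron were compared across 3 culture conditions of RAW 264.7, a macrophage line from mouse whose cells can become osteoclast-like. The genes were chosen by name, as Fth1, Ftl1, Tfrc, Slc40a1, Slc11a1, Slc11a2, Ireb2, Aco1 and Ncoa4, and all 9 were found among the 49315 genes of the deposited count table. All 9 also passed the filter on low counts that left 15963 genes for testing. Cells of every group were given RANKL, a cytokine that induces osteoclasts, at 20 ng/ml after 24 h of growth, per the growth notes, although the controls are labelled as untreated. The pamidronate group was then given 140 µM pamidronate, a nitrogen-containing bisphosphonate that blocks the synthesis of isoprenoid lipids, once 48 h had passed in all, and was collected 24 h later. The pamidronate + GGOH group was given the same pamidronate together with 5.25 µM geranylgeraniol (GGOH), an alcohol from which cells can make an isoprenoid lipid. The notes as read here give no collection time for the controls. Each group had 3 libraries, and all were labelled as 1 batch. GGOH was present only together with pamidronate in the groups compared here.

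Libraries held 14356069 to 18957968 counts. The summed level of 10 macrophage markers was 17564 to 21947 CPM (counts scaled by library size) in the control, 5181 to 7198 CPM with pamidronate and 7299 to 10656 CPM with pamidronate + GGOH. Most of this sum was Lyz2, at 13708, 4303 and 5895 CPM on average in the same order. Summed osteoclast markers, also 10 genes, ran from 217 to 247 CPM in the control, 349 to 495 CPM with pamidronate and 317 to 331 CPM with pamidronate + GGOH. The calcitonin receptor gene Calcr was at 0 counts in the control and pamidronate libraries, and Ocstamp and Oscar, which act in osteoclast fusion and signalling, stayed below 0.3 CPM on average in every group, while the other 7 were detected. Most of the summed rise with pamidronate came from Atp6v0d2, a proton pump subunit, at 58.2 CPM in the control, 272 with pamidronate and 126 with pamidronate + GGOH on average. Nfatc1, the master transcription factor of osteoclasts, was at 134, 84.8 and 81.9 CPM in the same order. Summed erythroid markers, which mark cells with a heavy haem demand, reached at most 4.83 CPM. Mitochondrial RNA made up 10.4 to 10.8% of counts in the control, 3.71 to 5.19% with pamidronate and 5.43 to 6.31% with pamidronate + GGOH. These marker and mitochondrial levels moved with the treatment groups, and their part in the results below was not tested. In RNA from whole cultures, fewer cells of a type and less RNA per cell cannot be told apart.

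Iron enters most cells as transferrin bound to the transferrin receptor, crosses the endosomal membrane through a metal transporter, and is either used, stored inside ferritin shells or exported by ferroportin. Iron regulatory proteins bind a short hairpin, the iron-responsive element, when iron is scarce. In the 5′ untranslated region (UTR) of a transcript the hairpin lets them block translation, and in the 3′ UTR it lets them protect the transcript from decay. Macrophages are known for recycling iron from engulfed red cells, which gives them high ferritin and ferroportin.

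The hairpin is shown for the members in which a strict pattern found it, since it is the sequence through which many iron genes are known to be coordinated. A pattern of an unpaired C, 5 bases, the letters CAGTG followed by A, C or T, and 5 bases that pair with the first 5, with at most 1 G-U pair, was searched on the transcript strand of GENCODE M21 UTRs (GRCm38). The pattern matched 4 of the 9 members in annotated UTRs, compared with 49 of 21901 coding genes, or 0.224%, in either UTR. Sequences are 5′ to 3′ in DNA letters, and capitals mark the 6-base loop.
Fth1 5′ UTR, chr19:9982733-9982759, plus strand: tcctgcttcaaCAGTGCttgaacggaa
Ftl1 5′ UTR, chr7:45459780-45459806, minus strand: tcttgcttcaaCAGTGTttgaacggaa
Slc40a1 5′ UTR, chr1:45925466-45925492, minus strand: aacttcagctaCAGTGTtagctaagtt
Tfrc 3′ UTR, chr16:32631220-32631246, plus strand: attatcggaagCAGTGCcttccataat
Tfrc 3′ UTR, chr16:32631599-32631625, plus strand: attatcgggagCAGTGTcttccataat
Tfrc 3′ UTR, chr16:32631664-32631690, plus strand: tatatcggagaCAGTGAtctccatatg
Tfrc 3′ UTR, chr16:32631711-32631737, plus strand: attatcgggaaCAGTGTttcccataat
The storage and export genes held 1 match each in the 5′ UTR, and Tfrc held 4 in the 3′ UTR, all of these in exon 19. Slc11a2 is also known to have a transcript with such a hairpin in its 3′ UTR, in a variant form, and no match to this pattern says only that these letters are not in the annotated UTRs. A match is a description of the letters, and protein binding, translation and RNA decay were not measured in these libraries. Gene-level counts do not separate transcripts with the hairpin from those without it.

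In the control, the members ranged from 2.57 to 23303 in TPM, a level per transcript length that can be compared between genes. Fth1 was at 23303 ± 4406 TPM (SD, n = 3), and Ftl1 at 2597 ± 1106 TPM. Fth1 was between the third and the eighth most abundant gene in every library, and Ftl1 lay between the tenth and the 47th. Slc11a1 followed at 77.9 ± 11.5 TPM. Tfrc at 26.2 ± 13.3, Ncoa4 at 25.5 ± 3.27, Ireb2 at 23.2 ± 0.729 and Slc11a2 at 23.2 ± 0.573 TPM did not differ from their neighbours in this order beyond their spread. Aco1 was at 14.1 ± 0.386 TPM, and the exporter Slc40a1 was the lowest at 2.57 ± 0.511 TPM. With pamidronate, Slc11a2 took the third place at 62.3 ± 2.39 TPM, above Tfrc at 46.7 ± 2.16 and Slc11a1 at 45.2 ± 10.1 TPM, and the last 2 did not differ beyond their spread. With pamidronate + GGOH the third place was held by Tfrc at 101 ± 11.0 TPM, and Slc40a1 rose above Aco1, at 20.4 ± 2.01 against 13.2 ± 1.16 TPM. Slc11a2 at 27.2 ± 2.03, Ireb2 at 26.7 ± 1.23 and Ncoa4 at 24.2 ± 3.55 TPM did not differ beyond their spread in that group.

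**Figure D1:**
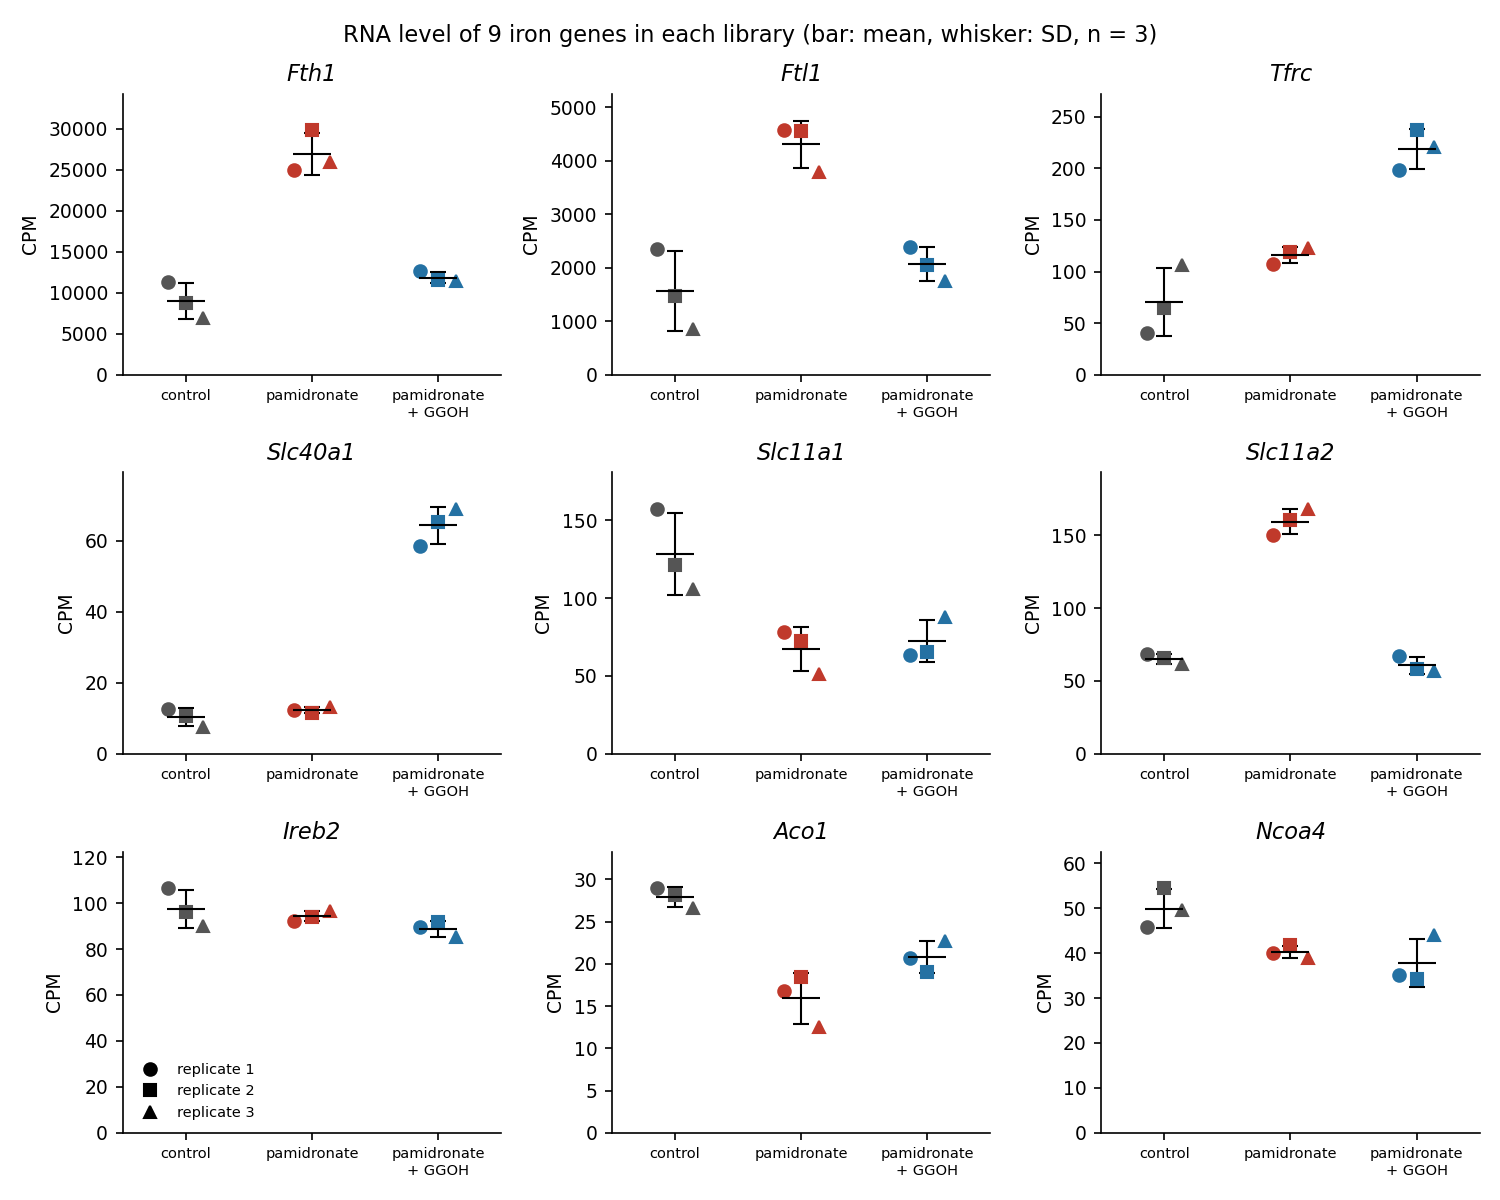
Level of each of the 9 iron genes in CPM (linear axis from 0) in the 9 libraries, by group; symbols mark replicates, the horizontal bar the mean and the whisker the SD (n = 3). Fth1, Ftl1 and Slc11a2 are highest in the pamidronate libraries, Slc40a1 stands apart only with pamidronate + GGOH (58.6 to 68.8 CPM), and Ireb2 stays between 85.1 and 106 CPM.

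Pamidronate compared with the control addressed how the expression of these genes differed between the 2 groups. The controls were labelled as untreated and had no stated collection time. Effects of the drug, of culture time and of any difference in RANKL can therefore not be told apart. Both ferritin genes and the metal importer Slc11a2 rose, by 2.45- to 3.00-fold, while the phagosomal metal transporter Slc11a1, the iron regulatory protein gene Aco1 and the ferritin cargo receptor Ncoa4 fell. Of the 9 members, 3 were called higher and 3 lower at an adjusted p under 0.05 in edgeR's quasi-likelihood test, against 69.2% of all genes tested, 36.2% higher and 32.9% lower. The 6 of 9 members called are near that background. The groups lay apart for 7 members, against 73.4% of all genes. Of the members, 3 differed at least 2-fold, against 37.9%, and the median log2 fold change was 0.26 over the members and 0.08 over all genes tested.

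Adding GGOH to pamidronate addressed which of these genes differ when an isoprenoid source is present. The genes that rose with pamidronate fell, Fth1, Ftl1 and Slc11a2, and the ferroportin gene Slc40a1 rose 5.19-fold, with smaller rises of Tfrc and Aco1. Here 3 members were called higher and 3 lower, against 48.8% of all genes tested, 25.2% higher and 23.6% lower. The groups lay apart for 7 members, against 59.6% of all genes, and 4 differed at least 2-fold, against 16.2%. The medians were -0.09 over the members and 0.00 over all genes.

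Against the control, the pamidronate + GGOH libraries held more Tfrc and Slc40a1 RNA and less Slc11a1, Aco1 and Ncoa4 RNA. In this comparison 2 members were called higher and 3 lower, against 52.4% of all genes tested, 26.3% higher and 26% lower. With upper-quartile scaling, which moved the median of all genes from 0.02 to 0.23 on the log2 scale, 3 members were called higher and 1 lower, and 69.2% of all called genes were higher instead of 50.3%. The groups lay apart for 6 members, against 58.2% of all genes, and 2 differed at least 2-fold, against 19.3%. The medians were -0.10 over the members and 0.02 over all genes. These 3 comparisons share libraries, so their values are given side by side and not as independent results.

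**Figure D2:**
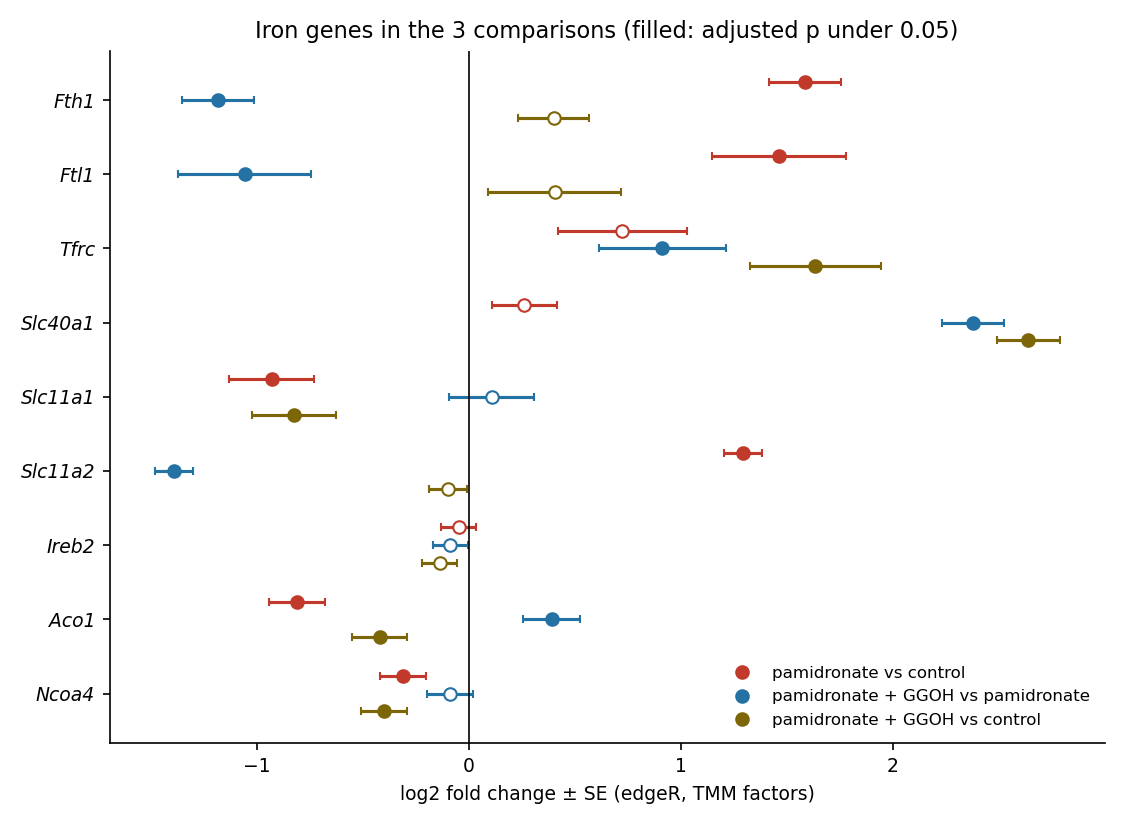
Log2 fold change ± SE of each iron gene in the 3 comparisons (edgeR, TMM factors); filled points have an adjusted p under 0.05. The pamidronate points of Fth1, Ftl1 and Slc11a2 lie right of 0 and their pamidronate + GGOH against pamidronate points lie left of it, whereas Slc40a1 lies at 2.38 and 2.64 in both comparisons with GGOH.

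Fth1 encodes the ferritin heavy chain, the subunit that oxidises iron for storage (ENSMUSG00000024661, GRCm38 chromosome 19, 9982703 to 9985092, plus strand). Its level was 11299, 8710.5 and 6947 CPM in the control libraries. With pamidronate it was 24992, 29846 and 25963 CPM, and with pamidronate + GGOH 12621, 11506 and 11440 CPM. Every pamidronate library lay above every other library, and the lowest pamidronate + GGOH library lay just above the highest control. Fth1 rose with pamidronate by 1.58 ± 0.17 (SE) on the log2 scale, a 3.00-fold change (edgeR adjusted p = 1.27e-06). It fell by 1.18 ± 0.17 when GGOH was added (edgeR adjusted p = 5.43e-05). Between pamidronate + GGOH and the control the log2 difference was 0.40 ± 0.17, with a 95% interval of 0.04 to 0.76, and it missed the threshold (edgeR adjusted p = 0.0569). That difference passed in 7 of 21 alternatives, namely the replicate block (edgeR adjusted p = 0.0414), DESeq2 (adjusted p = 0.0420), limma-voom (0.0246), upper-quartile scaling (0.00882), no filter (0.000588), a stricter filter (0.0321) and the fit without control replicate 1 (0.00214), in a range of 0.000588 to 0.206.

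Ftl1 encodes the ferritin light chain, which helps form the iron core (ENSMUSG00000050708, chromosome 7, 45457944 to 45459884, minus strand). The control libraries held 2349, 1478 and 861 CPM, the pamidronate libraries 4571, 4552 and 3792 CPM, and the pamidronate + GGOH libraries 2386, 2059 and 1754 CPM. The pamidronate libraries were the highest, and the other groups overlapped. Ftl1 rose with pamidronate by 1.46 ± 0.32 (SE) on the log2 scale (edgeR adjusted p = 0.00309) and fell by 1.06 ± 0.32 with GGOH added (edgeR adjusted p = 0.0224). The call for GGOH was lost without pamidronate replicate 1 (edgeR adjusted p = 0.0593) or 2 (0.0567), without pamidronate + GGOH replicate 2 (0.0716) or 3 (0.124), and with no filter on low counts (0.123), in a range of 2.42e-05 to 0.124 over 21 alternatives. Against the control the pamidronate + GGOH difference was 0.40 ± 0.31 with a 95% interval of -0.31 to 1.12 (edgeR adjusted p = 0.307). It passed without control replicate 1 (edgeR adjusted p = 0.0104) and with the replicate block (0.0488), in a range of 0.0104 to 0.705.

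The heavy and light chains assemble into 1 shell, so the ratio of their RNAs was compared. The Fth1 to Ftl1 ratio of TPM was 7.44, 9.12 and 12.5 in the control, 8.46, 10.1 and 10.6 with pamidronate, and 8.19, 8.64 and 10.1 with pamidronate + GGOH. All 3 groups overlapped, and pamidronate differed from the control by 1.02-fold (exact permutation p = 1, two-sided). Together the 2 genes took 0.980 ± 0.244% of all counts in the control, 3.04 ± 0.217% with pamidronate and 1.52 ± 0.0979% with pamidronate + GGOH (SD, n = 3). The groups did not overlap in any of the 3 comparisons (exact permutation p = 0.1 each, two-sided, the smallest that 3 against 3 libraries allow). Without mitochondrial RNAs and the abundant Gm26917 RNA in the total, the ferritin share ran from 0.905 to 1.53% in the control, 3.49 to 3.91% with pamidronate and 1.71 to 1.96% with pamidronate + GGOH, in the same order. Reads shared with ferritin pseudogenes could be split between rows, and these rows held at most 0.0114% of the Fth1 counts and 0.215% of the Ftl1 counts in any library.

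Ncoa4 encodes the receptor that carries ferritin to lysosomes, where its iron is released (ENSMUSG00000056234, chromosome 14, 32159865 to 32179855, plus strand). It was at 45.8, 54.5 and 49.5 CPM in the control, 40.0, 41.7 and 39.0 CPM with pamidronate, and 35.2, 34.2 and 43.9 CPM with pamidronate + GGOH. Every treated library lay below every control library. Ncoa4 fell with pamidronate by 0.31 ± 0.11 (SE) on the log2 scale (edgeR adjusted p = 0.0180), a call lost without pamidronate replicate 3 (edgeR adjusted p = 0.0571), with upper-quartile scaling (0.304) and with a stricter filter (0.0543), in a range of 0.00134 to 0.304. Its fall against the control with pamidronate + GGOH was 0.40 ± 0.11 (edgeR adjusted p = 0.00611), lost with upper-quartile scaling (0.10, the highest of a range that began at 0.000276). The treated groups differed by -0.09 ± 0.11, with a 95% interval of -0.32 to 0.14 (edgeR adjusted p = 0.516). The Ncoa4 to Fth1 ratio of TPM was 3.77-fold lower with pamidronate than in the control, and the groups did not overlap (exact permutation p = 0.1, two-sided, the smallest possible). With GGOH added it was 2.12-fold higher than with pamidronate alone (exact permutation p = 0.1). In edgeR, Fth1 itself was 3.00-fold higher with pamidronate than in the control and 2.27-fold lower with GGOH added, so the ratio largely follows Fth1.

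Tfrc encodes transferrin receptor 1, the main route of iron into dividing cells (ENSMUSG00000022797, chromosome 16, 32608920 to 32632794, plus strand). Its level was 40.9, 64.7 and 106 CPM in the control, 107, 119 and 123 CPM with pamidronate, and 199, 237 and 221 CPM with pamidronate + GGOH. Each pamidronate + GGOH library lay above each pamidronate library, and control replicate 3 nearly reached the pamidronate group. Tfrc was 1.63 ± 0.31 (SE) higher on the log2 scale with pamidronate + GGOH than in the control (edgeR adjusted p = 0.00336). Above pamidronate alone it was 0.91 ± 0.30 higher (edgeR adjusted p = 0.0394). That call was lost when any 1 of the 6 pamidronate or pamidronate + GGOH libraries was left out (edgeR adjusted p = 0.0582 to 0.113) and with no filter on low counts (0.109), in a range of 8.05e-06 to 0.113. The pamidronate libraries exceeded the control by 0.72 ± 0.30, with a 95% interval of 0.01 to 1.44, and missed the threshold (edgeR adjusted p = 0.0671). This difference passed in 6 of 21 alternatives. These were the fits without control replicate 1 (edgeR adjusted p = 0.0442) or 3 (0.00011), the replicate block (0.0125), upper-quartile scaling (0.0251), a stricter filter (0.0393) and limma-voom (0.0425), in a range of 0.00011 to 0.237.

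The controls were uneven for some of the members. The coefficient of variation among the 3 controls was 47.8% for Ftl1, 46.8% for Tfrc, 24.6% for Slc40a1 and 24.4% for Fth1, against a median of 12.7% over all genes tested. It was 20.4% for Slc11a1 and lay below that median for Ncoa4 at 8.72%, Ireb2 at 8.49%, Slc11a2 at 5.36% and Aco1 at 4.22%. Control replicate 1 had the highest Fth1, Ftl1 and Slc40a1 and the lowest Tfrc of the controls, and control replicate 3 had the reverse. The Tfrc to Fth1 ratio of TPM therefore spread from a log2 value of -10.9 in control replicate 1 to -8.87 in control replicate 3. With pamidronate this ratio overlapped the control (exact permutation p = 0.4, two-sided). With GGOH added it was 4.26-fold higher than with pamidronate alone, and those groups did not overlap (exact permutation p = 0.1, the smallest possible).

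**Figure D3:**
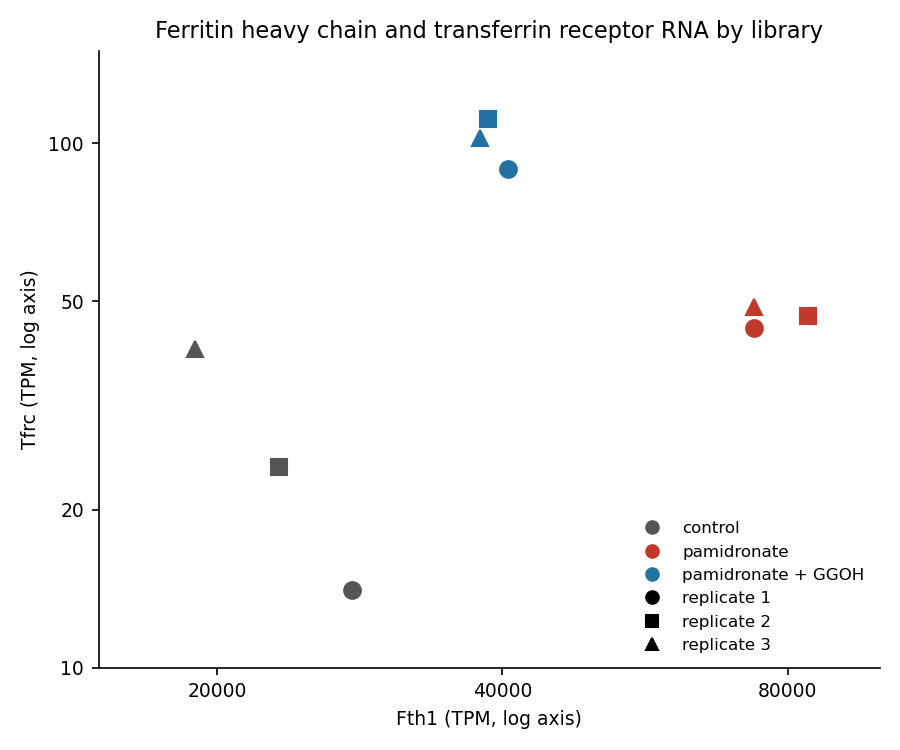
Fth1 against Tfrc in each library, in TPM on log axes; colours mark groups and symbols replicates. The controls spread from 14.1 to 40.5 TPM of Tfrc as Fth1 goes from 27746 down to 18934 TPM, the pamidronate libraries sit together at 73683 to 83996 TPM of Fth1, and the pamidronate + GGOH libraries hold the most Tfrc, 89.3 to 111 TPM.

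Slc11a2 encodes DMT1, which carries ferrous iron across the endosomal or cell membrane (ENSMUSG00000023030, chromosome 15, 100387898 to 100425072, minus strand). Its libraries held 68.4, 65.6 and 61.5 CPM in the control, 150.2, 160.2 and 168 CPM with pamidronate, and 67.4, 58.0 and 56.8 CPM with pamidronate + GGOH. Only the pamidronate group stood apart, with the other groups overlapping. Slc11a2 rose with pamidronate by 1.29 ± 0.09 (SE) on the log2 scale, a 2.45-fold change (edgeR adjusted p = 2.17e-08), and fell by 1.39 ± 0.09 with GGOH added (edgeR adjusted p = 9.03e-08). The pamidronate + GGOH and control groups differed by -0.10 ± 0.09 on the log2 scale, with a 95% interval of -0.29 to 0.09 (edgeR adjusted p = 0.359). Gm5475 overlaps an exon of Slc11a2 on the other strand and held at most 2.19% as many counts.

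Slc11a1 encodes NRAMP1, which moves metal ions out of the phagosome and is typical of macrophages (ENSMUSG00000026177, chromosome 1, 74375195 to 74386062, plus strand). Control libraries held 157, 121 and 106 CPM. Pamidronate libraries held 78.0, 72.6 and 51.2 CPM, and pamidronate + GGOH libraries 63.5, 65.7 and 87.9 CPM. All 6 treated libraries lay below the controls, and the treated groups overlapped. Slc11a1 fell with pamidronate by 0.93 ± 0.20 (SE) on the log2 scale (edgeR adjusted p = 0.00231) and with GGOH added its difference from the control was -0.83 ± 0.20 (edgeR adjusted p = 0.00692). Between the treated groups the difference was 0.11 ± 0.20, with a 95% interval of -0.35 to 0.56 (edgeR adjusted p = 0.692). The macrophage markers Csf1r, at 1391, 98.5 and 424 CPM, and Lyz2, at 13708, 4303 and 5895 CPM on average in the control, pamidronate and pamidronate + GGOH groups, were also lowest with pamidronate, and their part in the fall of Slc11a1 was not tested.

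The 2 members of the transporter family moved in opposite directions with pamidronate. The Slc11a1 to Slc11a2 ratio of TPM was 3.94, 3.18 and 2.96 in the control, 0.890, 0.777 and 0.523 with pamidronate, and 1.61, 1.94 and 2.65 with pamidronate + GGOH. Slc11a1 was thus the more abundant per length in the control and the less abundant with pamidronate. The ratio was 4.68-fold lower with pamidronate and rose 2.84-fold with GGOH added, with no overlap in either comparison (exact permutation p = 0.1 each, two-sided, the smallest possible).

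Slc40a1 encodes ferroportin, the iron exporter of animal cells (ENSMUSG00000025993, chromosome 1, 45908068 to 45926523, minus strand). The control libraries held 12.7, 10.5 and 7.67 CPM, the pamidronate libraries 12.3, 11.5 and 13.3 CPM, and the pamidronate + GGOH libraries 58.6, 65.3 and 68.8 CPM. The control and pamidronate groups overlapped, and every pamidronate + GGOH library was more than 4 times any other. Slc40a1 rose by 2.38 ± 0.15 (SE) on the log2 scale with GGOH added to pamidronate, a 5.19-fold change (edgeR adjusted p = 6.35e-08). Against the control the rise was 2.64 ± 0.15, or 6.22-fold (edgeR adjusted p = 5.85e-08). Pamidronate alone differed from the control by 0.26 ± 0.15, with a 95% interval of -0.07 to 0.59 (edgeR adjusted p = 0.141), a difference that passed without control replicate 1 (edgeR adjusted p = 0.0167) and with upper-quartile scaling (0.0167), in a range of 0.0167 to 0.856. The Slc40a1 to Tfrc ratio of TPM was 2.76-fold higher with pamidronate + GGOH than with pamidronate (exact permutation p = 0.1, two-sided, the smallest possible), without overlap. This ratio overlapped the control both with pamidronate + GGOH (exact permutation p = 0.4) and with pamidronate alone (exact permutation p = 0.5).

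Ireb2 encodes IRP2, an iron regulatory protein controlled mainly through its degradation (ENSMUSG00000032293, chromosome 9, 54863789 to 54912530, plus strand). Its level was 106, 95.9 and 90.2 CPM in the control, 92.4, 93.7 and 96.8 CPM with pamidronate, and 89.4, 91.6 and 85.1 CPM with pamidronate + GGOH. The groups overlapped in the comparison of pamidronate with the control, where the log2 difference was -0.05 ± 0.08 (SE) with a 95% interval of -0.22 to 0.13 (edgeR adjusted p = 0.613). This was the narrowest interval of the 9 members in that comparison. The other comparisons gave -0.09 ± 0.08 for GGOH added to pamidronate (edgeR adjusted p = 0.396) and -0.14 ± 0.08 for pamidronate + GGOH against the control (edgeR adjusted p = 0.175).

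Aco1 encodes IRP1, which is a cytosolic aconitase when it holds an iron-sulfur cluster and binds the hairpin when it does not (ENSMUSG00000028405, chromosome 4, 40143081 to 40198338, plus strand). It was at 29.0, 28.2 and 26.6 CPM in the control, 16.8, 18.4 and 12.5 CPM with pamidronate, and 20.7, 19.1 and 22.8 CPM with pamidronate + GGOH. The 3 groups did not overlap, with the controls highest and the pamidronate libraries lowest. Aco1 fell with pamidronate by 0.81 ± 0.13 (SE) on the log2 scale (edgeR adjusted p = 7.65e-05). It rose by 0.39 ± 0.13 with GGOH added (edgeR adjusted p = 0.0259), a call lost without pamidronate replicate 3 (edgeR adjusted p = 0.136) or pamidronate + GGOH replicate 3 (0.0528), in a range of 0.00693 to 0.136. It was still below the control by -0.42 ± 0.13 (edgeR adjusted p = 0.0145), lost with upper-quartile scaling (0.150) and without pamidronate + GGOH replicate 2 (0.0660), in a range of 0.00271 to 0.150. The Ireb2 to Aco1 ratio of TPM was 1.72-fold higher with pamidronate than in the control, without overlap (exact permutation p = 0.1, two-sided, the smallest possible).

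**Figure D4:**
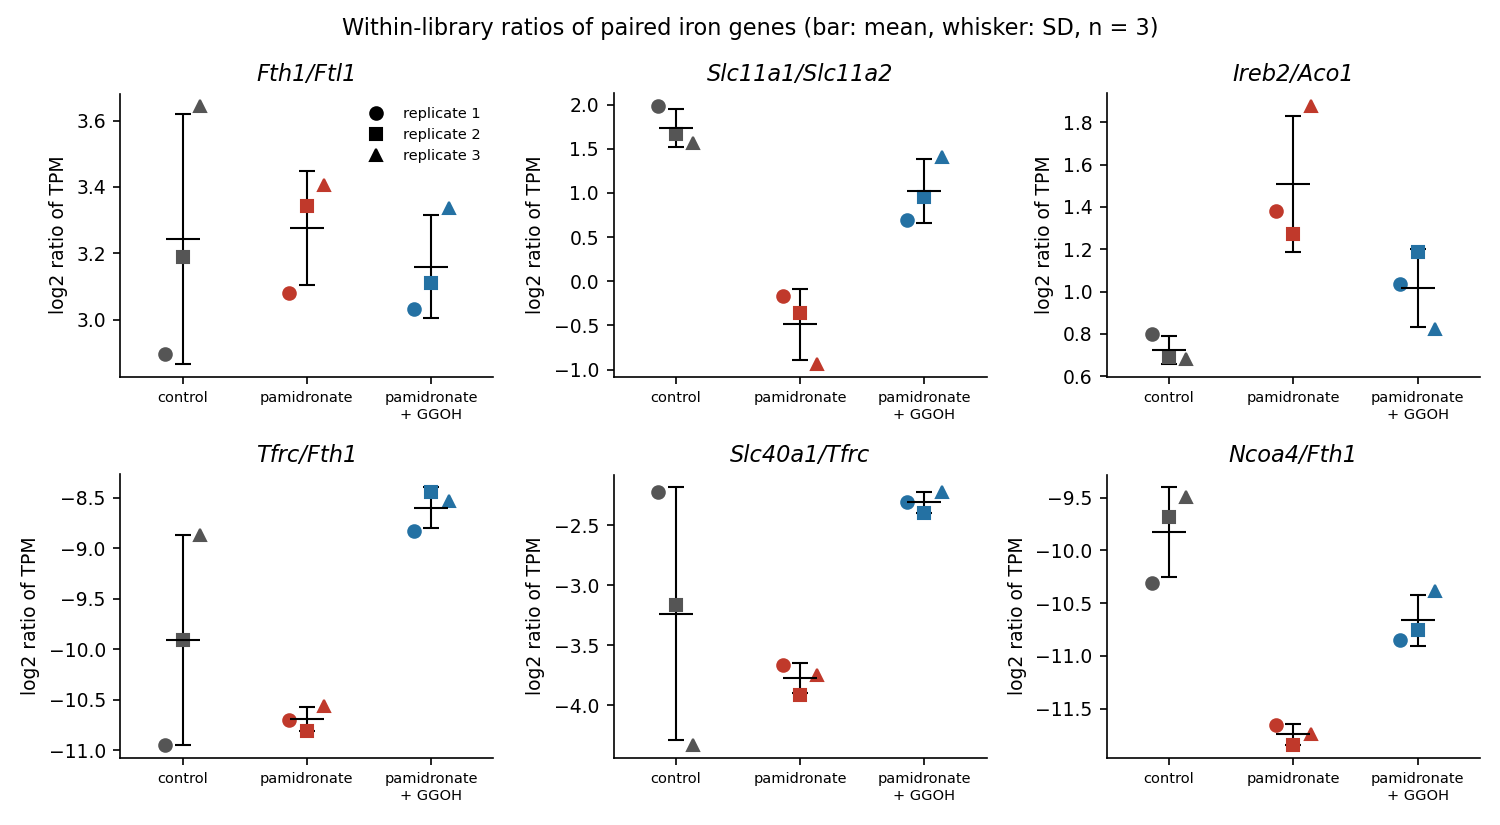
Log2 ratio of TPM of 6 pairs of iron genes within each library; symbols mark replicates, the bar the mean and the whisker the SD (n = 3), and axes do not start at 0. The Slc11a1/Slc11a2 and Ncoa4/Fth1 ratios are lowest with pamidronate, Tfrc/Fth1 is highest with pamidronate + GGOH, and Fth1/Ftl1 overlaps across the 3 groups.

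Over the 6 pairs and 3 comparisons, 12 of 18 ratios did not overlap between groups. Across the 3 comparisons, 58.2 to 73.4% of all single genes tested did not overlap either. That share among ratios of other gene pairs was not computed. Pairs share genes and comparisons share libraries, so the 18 are not independent results. None of the ratios could pass after adjustment, since 3 against 3 libraries allow no p below 0.1. The smallest Benjamini-Hochberg adjusted p over the 18 exact permutation tests was 0.15.

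Other genes of iron handling, outside the 9, were counted in 5 lists. In the list of iron entry, reduction, binding and systemic control, 4 of the 20 genes tested rose and 10 fell with pamidronate (median log2 fold change -0.32, against 0.08 over all genes). The 70% called is near the 69.2% of all genes tested. Hfe, which modulates iron sensing through the transferrin receptor, fell from 14.1 ± 2.87 to 0.288 ± 0.124 CPM (SD, n = 3), a log2 fold change of -5.57 ± 0.36 (SE, edgeR adjusted p = 1.29e-08). Neo1, the receptor neogenin that acts in systemic iron control, rose from 0.532 ± 0.197 to 8.64 ± 1.09 CPM (edgeR adjusted p = 6.87e-07). The poly(rC)-binding proteins deliver iron to ferritin, and Pcbp2 fell by 0.68 ± 0.10 on the log2 scale (edgeR adjusted p = 2.99e-05) whereas Pcbp1 differed by -0.00 ± 0.08 (edgeR adjusted p = 0.978). Fbxl5, the iron-sensing ubiquitin ligase subunit that marks IRP2 for degradation, differed by -0.11 ± 0.11 (edgeR adjusted p = 0.344), and Steap3, an endosomal iron reductase, by 0.09 ± 0.11 (edgeR adjusted p = 0.451). Trf, the gene of transferrin itself, was low, at 2.28 ± 0.215 CPM in the control and 0.227 ± 0.0929 CPM with pamidronate.

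When GGOH was added to pamidronate, 7 of the 20 genes in that list rose and 2 fell (median 0.19), so that 45% were called, against 48.8% of all genes. Cp encodes ceruloplasmin, a copper oxidase that works with ferroportin in iron export. Its level went from 20.0 ± 1.40 CPM with pamidronate to 88.2 ± 44.3 CPM with pamidronate + GGOH, a log2 fold change of 2.14 ± 0.35 (SE, edgeR adjusted p = 0.00208). The pamidronate + GGOH libraries of Cp were spread from 49.0 to 136 CPM, so the SD was about as large as the lowest value, yet all lay above the pamidronate libraries. In the control Cp was at 68.2 ± 5.22 CPM, and it had fallen with pamidronate by 1.77 ± 0.35 (edgeR adjusted p = 0.00307). Hfe rose with GGOH to 4.55 ± 1.57 CPM, still 1.63 ± 0.24 below the control on the log2 scale (edgeR adjusted p = 9.69e-05). Against the control, 5 genes of the list were higher and 8 lower with pamidronate + GGOH, and the 65% called stood against 52.4% of all genes.

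Of 22 tested genes of haem uptake, breakdown and synthesis, 4 rose and 8 fell with pamidronate, 5 rose and 4 fell with GGOH added, and 2 were higher and 9 lower in pamidronate + GGOH than in the control. The shares called were 54.5, 40.9 and 50%, against 69.2, 48.8 and 52.4% of all genes. Hmox1 encodes haem oxygenase 1, which frees iron from haem. It rose from 328 ± 90.4 CPM in the control to 1402 ± 50.2 CPM with pamidronate, by 2.10 ± 0.18 (SE) on the log2 scale (edgeR adjusted p = 5.45e-07). With pamidronate + GGOH it was at 1523 ± 260 CPM, a log2 difference from pamidronate of 0.12 ± 0.18 with an adjusted p of 0.601 in edgeR. The treated groups of Hmox1 overlapped, and both lay above the control, whereas Fth1 and Ftl1 fell with GGOH. Flvcr1, a membrane transporter linked to haem export, rose from 53.8 ± 4.11 to 98.8 ± 5.13 CPM with pamidronate and fell to 58.9 ± 10.3 CPM with GGOH added. Blvra, a biliverdin reductase that acts after haem oxygenase, fell from 42.9 ± 6.45 to 12.8 ± 1.14 CPM and rose to 25.3 ± 6.38 CPM with GGOH. Alas1, the first enzyme of haem synthesis outside red cells, fell by 1.14 ± 0.09 on the log2 scale with pamidronate (edgeR adjusted p = 8.97e-08).

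Among 20 tested genes of mitochondrial iron and iron-sulfur cluster assembly, 3 rose and 11 fell with pamidronate (median -0.21), and the 70% called is near the 69.2% of all genes. Lyrm4 and Nfs1, subunits of the enzyme complex that supplies sulfur for the clusters, fell by 1.49 ± 0.16 and 0.86 ± 0.09 (SE) on the log2 scale (edgeR adjusted p = 8.96e-07 and 1.17e-06). With GGOH added, 6 genes of this list rose and 3 fell (45% called, against 48.8%), among them Lyrm4 with a rise of 1.16 ± 0.16 (edgeR adjusted p = 3.34e-05). Against the control, 5 were lower with pamidronate + GGOH and the other 15 were not called (25% called, against 52.4%). In the 13 genes of cytosolic iron-sulfur cluster assembly, 4 rose and 4 fell with pamidronate, 2 rose and 4 fell with GGOH added, and 2 were higher and 5 lower than in the control with both. The shares called were 61.5, 46.2 and 53.8%, against 69.2, 48.8 and 52.4% of all genes. Ndor1, a reductase that passes electrons to this pathway, rose from 33.6 to 104 CPM on average with pamidronate, by 1.63 ± 0.10 (edgeR adjusted p = 1.12e-08), and fell by 1.22 ± 0.10 with GGOH.

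The 18 transcription factors that act on iron genes split into 5 that rose and 9 that fell with pamidronate (median -0.46), 6 that rose and 7 that fell with GGOH added, and 5 higher and 9 lower in pamidronate + GGOH than in the control. The shares called were 77.8, 72.2 and 77.8%, against 69.2, 48.8 and 52.4% of all genes. Myc, a growth regulator that acts on ferritin and transferrin receptor genes, had the largest change of the list, from 0.685 ± 0.322 to 77.5 ± 13.4 CPM with pamidronate, by 6.81 ± 0.48 (SE) on the log2 scale (edgeR adjusted p = 4.82e-06), and fell to 12.7 ± 5.96 CPM with GGOH added (edgeR adjusted p = 0.000389). Maff, a small Maf protein that pairs with Nfe2l2 or Bach1, rose with pamidronate by 2.17 ± 0.16 (edgeR adjusted p = 4.17e-08). Nfe2l2, which activates ferritin, ferroportin and Hmox1 genes, fell by 0.95 ± 0.11 (SE) on the log2 scale with pamidronate (edgeR adjusted p = 2.96e-06). Bach1, which represses the same genes when haem is low, fell by 0.70 ± 0.08 (edgeR adjusted p = 1.85e-06), from 129 ± 3.48 to 79.6 ± 2.40 CPM. With GGOH added, Bach1 rose by 0.25 ± 0.08 (edgeR adjusted p = 0.0154), and Nfe2l2 differed by 0.08 ± 0.11 (edgeR adjusted p = 0.562). Spi1 and Mitf, which act in macrophages and osteoclasts, fell with pamidronate by 1.07 ± 0.12 and 1.98 ± 0.15, and Mitf rose by 0.94 ± 0.15 with GGOH added (edgeR adjusted p = 0.000249).

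**Figure D5:**
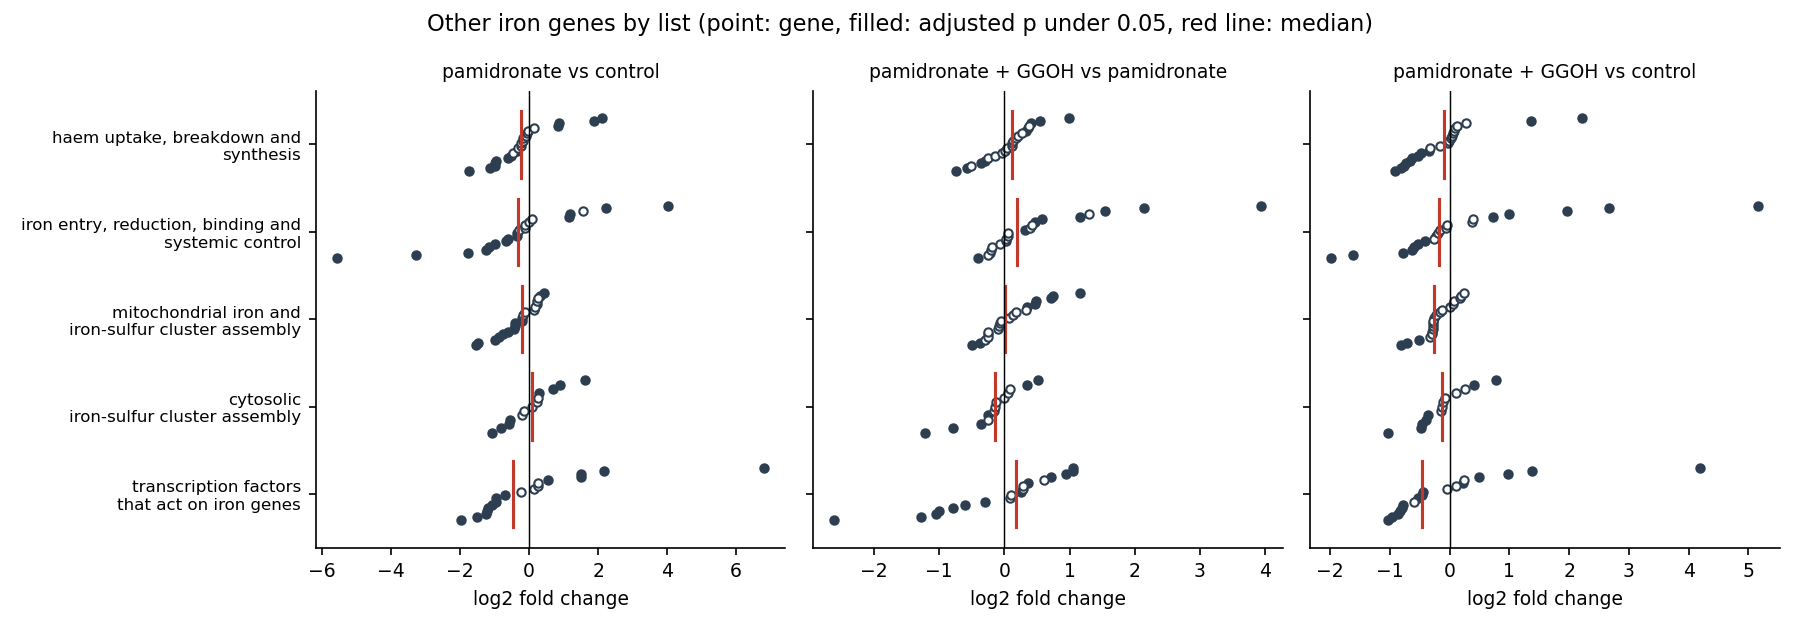
Log2 fold change of each tested gene in 5 lists of other iron genes, in the 3 comparisons; each point is 1 gene, filled where the adjusted p is under 0.05, the red line is the list's median, and the x axes differ. In the first comparison the points of mitochondrial iron and iron-sulfur cluster assembly lie mostly left of 0, with 11 lower and 3 higher.

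For each member, similar genes were taken by Pearson correlation of log2 CPM over the 9 libraries, among 9384 genes with a mean of at least 5 CPM, as a description of libraries that share the 3 groups. The closest to Slc11a2 were Insig1, a brake on sterol synthesis (r = 0.997), and the transcription factor gene Sp1 (r = 0.996). In all, 28 genes had an r above 0.99 with Slc11a2. Closest to Fth1 were Pcnx (r = 0.998) and the clock gene Per1 (r = 0.996), and closest to Ftl1 were Fxr2 (r = 0.996) and the coactivator gene Ep300 (r = 0.987), so neither ferritin had the other among its top 2. Slc40a1 was most like Syt8 (r = 0.984) and Soat2, an enzyme of cholesterol esterification (r = 0.980). Tfrc was most like Cacna1b (r = 0.969) and the noncoding RNA Snhg4 (r = 0.953). Slc11a1 was most like Magee1 (r = 0.995) and Susd3 (r = 0.992), Aco1 like Irak3 (r = 0.99) and Lrfn4 (r = 0.986), and Ncoa4 like Kctd20 (r = 0.987) and Prps1 (r = 0.970). Among the genes most like Ireb2 was Tmem234 (r = 0.936).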

How the data were processed

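RNA was sequenced from 9 libraries made from 300 ng of total RNA each with ribosomal RNA removed, per the labels' protocols. Reads were trimmed with Trimmomatic 0.36 and the build was GRCm38, per the submitters' processing notes, which also name DESeq without a version. For the aligner, counter and strandedness, no name is given in the sources used here, so reads of a gene and an overlapping antisense gene cannot be told apart. The authors deposited raw counts for 49315 genes, which equal the deposited per-sample counts in every row. The authors also deposited TPM values, which follow from the counts and deposited exon lengths and were used for levels and ratios between genes. Control titles speak of biological replicates, but the protocol mentions only triplicate extraction, and nothing says that the other groups came from separate cultures, so p-values measure the spread between these samples, which may be technical. The pamidronate + GGOH library names hold an unexplained percentage.

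Genes were filtered with filterByExpr, libraries were scaled with TMM factors, and all 9 libraries entered 1 model in edgeR 4.0.16 (R 4.3.3, robust quasi-likelihood test), and p-values were adjusted by Benjamini-Hochberg over 15963 genes. A gene was called at an adjusted p under 0.05, whatever its fold change. SE is the size of the log2 fold change divided by the square root of F. CPM values use the TMM factors. Ratios and the ferritin share were tested with exact permutation tests in scipy 1.17.1. The test was also run on simulated data in which only a small share of genes was changed. With pamidronate against the control 69.2% of genes were called, so that run does not check the scaling under so broad a change. The 3 libraries of each group differed beyond counting error (chi-square over its degrees of freedom between 3.72 and 32.9), which a duplicate would not. As alternatives, upper-quartile and RLE factors, a filter at 1 CPM in 6 libraries and no filter, DESeq2 1.42.0, limma-voom (limma 3.58.1), the 2 groups alone, a block for the replicate number, a 2-fold minimum, an adjusted p under 0.01, counts without mitochondrial RNAs and Gm26917, ferritin pseudogene counts added, and each library left out were run. Hairpins were searched in GENCODE M21, whose Fth1 start or end differs from the deposited coordinates. Named were all 9 members, up to 3 called genes of each other list and comparison with the largest change and at least 5 CPM, a fixed set of iron genes, and for each member the 2 most similar genes. Some genes that the rule takes are not reported here, and Lyz2, Csf1r, Calcr, Ocstamp and Oscar come from the marker lists. Members and lists were chosen with earlier results of these data known. Marker lists of T cells, B cells, fibroblasts and hepatocytes reached at most 11.6, 2.18, 11.7 and 1.08 CPM in summed level.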

Additional observations from a re-analysis of the deposited data

How the results depend on the processing

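Counts of members called moved by more than 1.5 times in few settings. With pamidronate against the control, upper-quartile factors gave 5 higher, and a 2-fold minimum gave 3 called and 0 lower. With GGOH added to pamidronate, an adjusted p under 0.01 gave 3 called and 1 higher, and a 2-fold minimum gave 1 higher. With pamidronate + GGOH against the control, upper-quartile factors gave 1 lower, and a 2-fold minimum gave 2 called and 0 lower. Deviations of same-numbered libraries correlated at -0.26 to 0.27, with 2 of 9 above 0.1. In 9 of 18 comparisons a library was most like its own number. Ftl1 fell and the Fth1 to Ftl1 ratio rose from replicate 1 to 3 in all 3 groups. With the replicate block, Ftl1 had an adjusted p of 2.29e-05 for pamidronate against the control in edgeR, instead of 0.00309. These values do not decide whether the replicate numbers pair the libraries. The replicate block gave 4 members higher for pamidronate + GGOH against the control. Leaving out 1 library gave 5 to 8 called (3 to 5 higher, 2 to 3 lower) for pamidronate against the control, 3 to 6 (1 to 3 higher, 2 to 3 lower) for GGOH added to pamidronate and 4 to 7 (2 to 4 higher, 2 to 3 lower) for pamidronate + GGOH against the control.

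The log2 differences that changed sign were small and uncalled. For pamidronate against the control, Ireb2 was at 0.15 with upper-quartile factors, 0.026 with the stricter filter, and -0.16 to 0.013 with 1 library left out, above 0 without control replicate 1. With GGOH added to pamidronate, Slc11a1 ran from -0.061 to 0.24 with 1 library left out, below 0 without replicate 3 of either group, and Ncoa4 from -0.17 to 0.024, above 0 without pamidronate + GGOH replicate 1 or 2. Against the control, upper-quartile factors put Slc11a2 at 0.10 and Ireb2 at 0.065 with pamidronate + GGOH. The log2 Fth1 to Ftl1 ratio ran from -0.14 to 0.23 for pamidronate against the control, with -0.03 without pamidronate replicate 3, and from -0.26 to 0.12 for pamidronate + GGOH against the control. The cause of these changes was not tested. Of the single-member results under alternatives, 508 kept both sign and call status, 33 lost and 17 gained a call with the sign kept, and 9 changed sign. These include the 2-fold minimum and the adjusted p under 0.01, which change only the threshold. In the control libraries Slc40a1 had the fewest counts of the members, 124 to 218. With pamidronate + GGOH Aco1 had the fewest, 306 to 433, against 1032 to 1309 of Slc40a1.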
